A study of Mus musculus with 15 samples.

Results

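Collagen chain genes were measured in the left ventricle of mice with 1 of 2 amino acid substitutions in Rbm20, which encodes a splicing factor of heart and skeletal muscle. Members were all rows of the count tables whose symbol has the form Col, a type number, a and a chain number. They came to 44 of the 40174 symbols in the tables, and 39 of the 44 passed the filter on low counts, among 17588 genes that did. By class they were 11 fibrillar, 9 network-forming, 9 FACIT (fibril-associated) and 15 other members, with 9, 9, 7 and 14 past the filter. G-line HOM mice carried the substitution S639G in Rbm20, written -/- in the labels, and G-line HET mice carried it in the state +/-. A-line HOM mice carried S637A, written -/-, and A-line HET mice carried it as +/-. WT mice carried neither, and all mice were of the C57BL/6 strain and 2 months old. The study asked how these substitutions act in remodelling of the heart.

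Each group was labelled with 3 replicates, but replicates 2 and 3 of A-line HOM and of WT held identical counts in all 40174 symbols. That pair was used once, as WT, so 13 of 15 labelled libraries were distinct and A-line HOM kept 1 library. The labels do not say that replicates came from separate animals, and p-values measure only the spread between these libraries, which may be technical. Total counts per library ran between 12959087 and 29436407. Rbm20 itself, whose coding sequence is changed and not removed, lay between 357 and 495 CPM in all 13 libraries. CPM here are counts per 1000000 of the library total over genes past the filter, rescaled by the TMM factor of the library, and so differ from counts over the raw total. Heart muscle markers were abundant in every library, with a summed level of at least 41190 CPM over 10 genes. Atrial transcripts stood out in 3 libraries, G-line HOM replicate 1, A-line HET replicate 3 and WT replicate 2, which had 45.8, 240.1 and 524 CPM of Myl7, the atrial myosin light chain, against at most 3.43 CPM elsewhere. G-line HOM replicate 1 and A-line HET replicate 2 had 24.6 and 29.04 CPM of the clock gene Arntl, against at most 5.28 CPM in the others. Because whole ventricle was sampled, fewer cells of a type and less RNA per cell cannot be told apart in any result that follows.

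Collagens are extracellular proteins made of chains that wind around each other into a stiff helix. Fibrillar collagens (types I, III, V, XI, XXVII) assemble into the fibres that carry tension between heart muscle cells. Network collagens include type IV, the sheet of basement membranes, and type VIII, while FACIT collagens decorate the surface of fibres. Most fibrillar collagen of the heart is made by fibroblasts, whereas basement membrane collagen also comes from muscle and vessel cells.

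Collagen transcripts made up a larger share of the RNA in G-line HOM ventricles, and the gain was spread unevenly over the chains. The 44 members took 0.529%, 0.369% and 0.283% of all counts in the G-line HOM libraries, against 0.144%, 0.219% and 0.160% in the WT libraries. The share was 0.332%, 0.216% and 0.295% in G-line HET, 0.212% in the A-line HOM library and 0.239%, 0.293% and 0.270% in A-line HET. All G-line HOM libraries thus lay above all WT libraries, while the lowest G-line HET library and the A-line HOM library lay below WT replicate 2. FACIT members held 6.46%, 7.34% and 4.82% of collagen counts in G-line HOM, against 2.02%, 3.62% and 2.09% in WT. The fibrillar part lay at 33.2% to 39.1% in the G-line HOM libraries and at 29.8% to 38.9% in the WT libraries, so the groups overlapped.

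In the test against WT, 21 of the 39 members were higher in G-line HOM and 0 were lower, at a Benjamini-Hochberg adjusted p under 0.05 in edgeR's quasi-likelihood test over all 17588 genes. Of all genes tested, 13.1% were higher and 13.3% lower in that comparison. The median log2 fold change was 0.81 over the 39 members and 0.01 over all genes. The 21 comprised 6 of 9 fibrillar, 5 of 9 network, 5 of 7 FACIT and 5 of 14 other members past the filter. Another 6 members, 4 of them with lower levels, had an unadjusted p under 0.05 only, which brought that count to 27 of 39 (69.2%), against 37.2% of all genes. DESeq2 called 23 members higher and 0 lower, against 13.7% of all genes higher and 13.98% lower. All 21 called members had every G-line HOM library above every WT library, a separation seen in 20.6% of all genes. Col8a1, Col4a3, Col4a4, Col4a5, Col5a2, Col16a1, Col22a1 and Col9a2 kept their call in all 25 alternative analyses, 13 of which left out 1 library. Leaving out G-line HOM replicate 1 gave 13 higher members, and leaving out WT replicate 1 gave 11 higher and 1 lower. Leaving out WT replicate 3 gave 13 higher, and leaving out the 2 libraries with high Arntl gave 13, 11 higher and 2 lower. Of all genes, 10.5%, 9.65%, 9.26% and 10.6% were higher in those fits, in that order, against 13.1% in the main fit. The shares of all genes that were lower were 10.7%, 10.1%, 9.79% and 11.03%, against 13.3%. The 8 named members were also the whole set called when the shared pair of libraries was taken as A-line HOM, which left WT with 1 library.

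**Figure D1:**
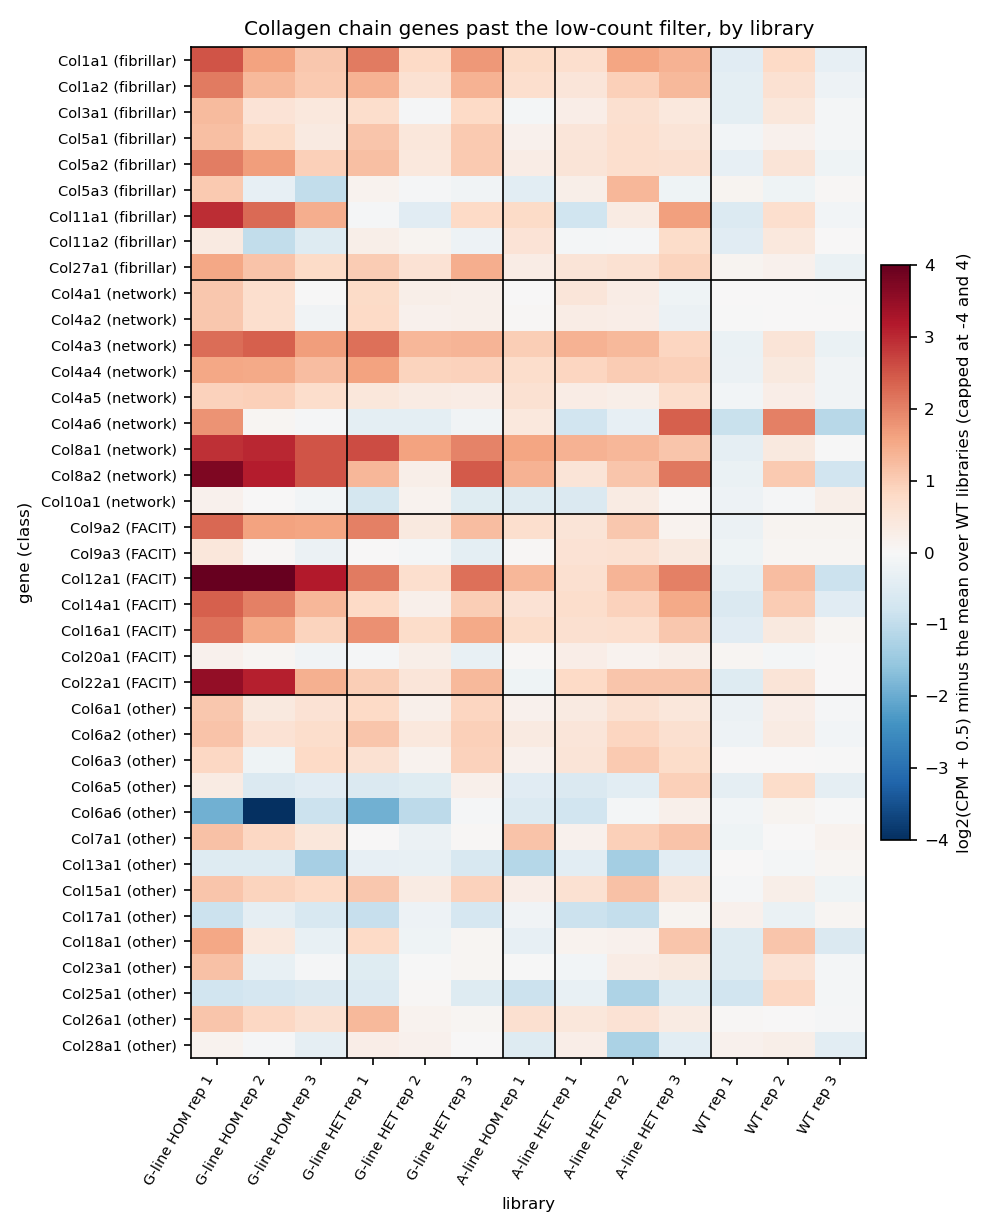
Heat map of log2(CPM + 0.5) minus the mean of the WT libraries for the 39 members past the filter (rows, grouped by class) in the 13 libraries (columns), capped at -4 and 4. Col8a1, Col12a1 and Col22a1 lie well above the WT mean in the G-line HOM columns, while Col6a6 lies below it.

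**Figure D2:**
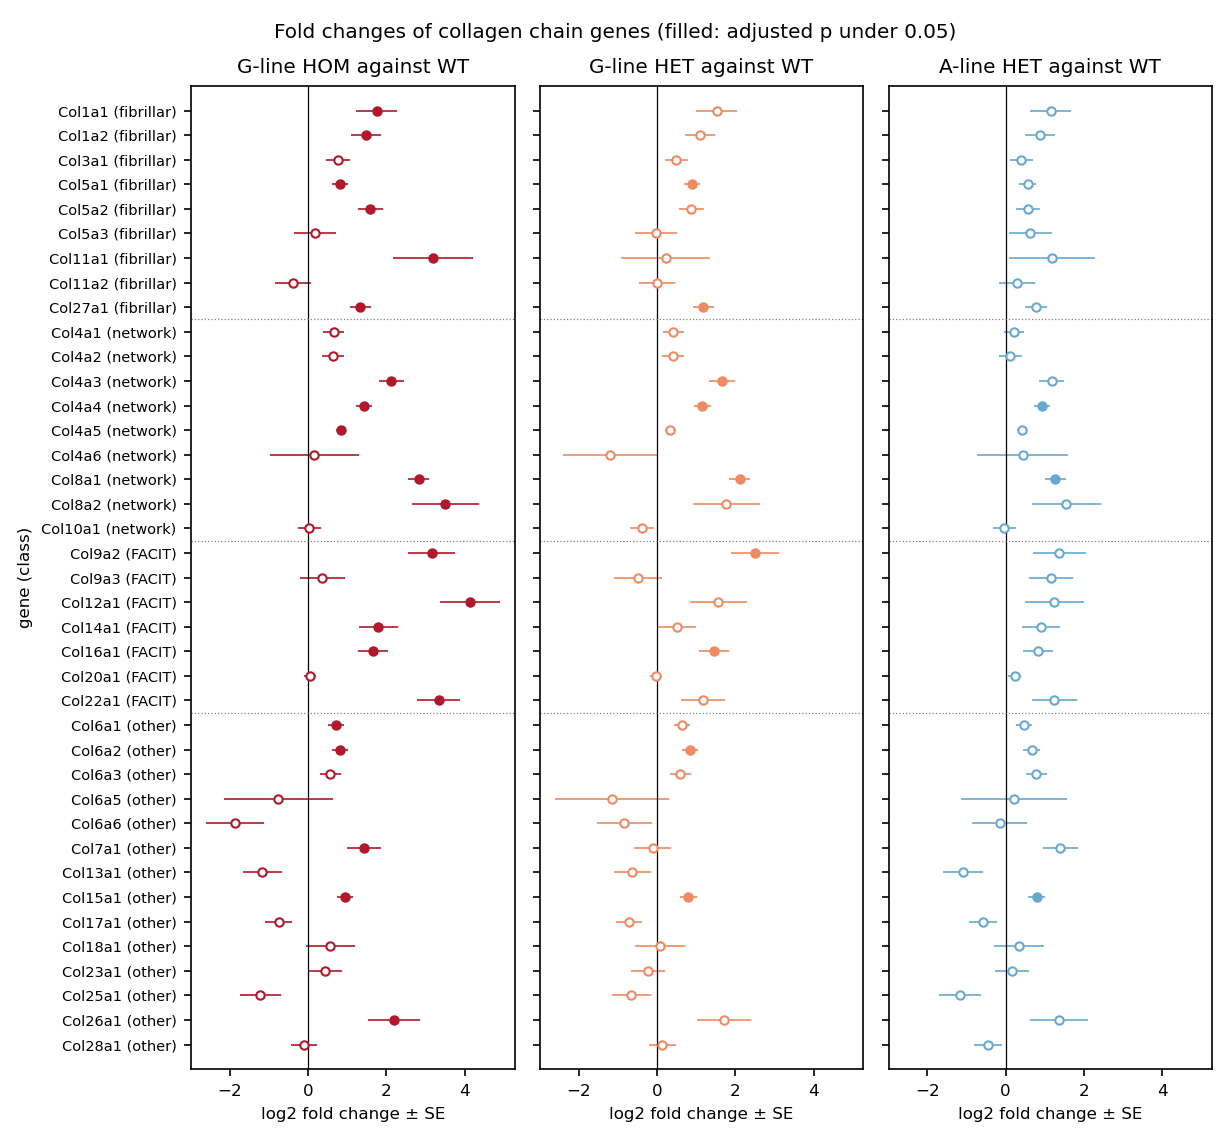
Log2 fold change with its standard error (x axis) for each member (y axis) in G-line HOM, G-line HET and A-line HET, each against WT, with filled points where the adjusted p was under 0.05. There are 21 filled points in the G-line HOM panel, 9 in the G-line HET panel and 3 in the A-line HET panel, all to the right of 0.

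Per transcript length, the basement membrane chain Col4a1 was the most abundant member in every group, at 84.8 ± 30.8 CPM per kb in G-line HOM and 54.1 ± 0.952 in WT (mean ± SD, n = 3). Lengths are merged exons of GENCODE M21, so these levels compare chains only roughly. Col3a1 followed with 59.96 ± 20.8 CPM per kb in G-line HOM and 35.6 ± 10.9 in WT, and its spread overlapped that of Col4a1 in G-line HOM. Col8a1 ranked 4 among 44 members in G-line HOM, at 39.1 ± 6.83 CPM per kb, and 12 in WT, at 5.54 ± 1.49. Col12a1 ranked 15 in G-line HOM and 27 in WT, with 6.24 ± 2.96 and 0.353 ± 0.309 CPM per kb. The same members stayed at the top, since Col4a1, Col3a1 and Col4a2 together held ranks 1 to 3 in every group. Only in the A-line HOM library did Col4a2, at 34.6 CPM per kb, rank above Col3a1, at 32.4.

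Among network collagens, Col8a1, which encodes a short chain of the hexagonal lattice under endothelium and around smooth muscle cells, had the smallest adjusted p of the family in G-line HOM. Col8a1 had 324, 348 and 246 CPM in G-line HOM, against 32.7, 55.9 and 41.5 CPM in WT. For Col8a1, G-line HET libraries had 264, 131 and 171 CPM, the A-line HOM library 126 CPM and A-line HET libraries 112, 108 and 92.6 CPM. Every mutant library lay above every WT library, and the A-line libraries lay below every G-line library. Its log2 fold change was 2.82 ± 0.28 in G-line HOM (adjusted p 7.87e-05), 2.12 ± 0.27 in G-line HET (0.00144), 1.54 ± 0.35 for the A-line HOM library (0.0347) and 1.26 ± 0.27 in A-line HET (0.0177). The A-line HOM group has 1 library, so its error and p here borrow the spread of the other groups. In A-line HET the call was lost without A-line HET replicate 2 and WT replicates 1 and 3, each left out alone (log2 fold changes of 1.10 to 1.24, adjusted p 0.062 to 0.0722). For the A-line HOM library it was lost without G-line HOM replicate 1, G-line HET replicate 3 and WT replicates 1 and 3, each left out alone (log2 fold changes of 1.37 to 1.54, adjusted p 0.0501 to 0.0958). Col8a2, the partner chain of type VIII, had 17.4, 11.4 and 7.14 CPM in G-line HOM, against 0.601, 2.23 and 0.292 CPM in WT. For Col8a2, G-line HET libraries had 2.87, 1.079 and 6.85 CPM, the A-line HOM library 3.03 CPM and A-line HET libraries 1.42, 2.39 and 5.32 CPM. Its log2 fold change in G-line HOM was 3.50 ± 0.86 (adjusted p 0.0148), and all 3 G-line HOM libraries lay above all G-line HET and WT libraries. The Col8a2 call was lost without WT replicate 1 (log2 fold change 3.22, adjusted p 0.0581), and without WT replicate 2 the log2 fold change was 4.74.

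The promoter window of Col8a1 is shown because this member gave the smallest adjusted p of the family in G-line HOM. RefSeq windows run between 250 bases before and 50 bases after the start of a gene in GRCm38.p6, and 35 of the 44 members matched one. The Col8a1 window lies at chr16:57754688-57754987 on the minus strand, and capitals mark its 4 matches to the GC box GGGCGG on either strand.
Col8a1: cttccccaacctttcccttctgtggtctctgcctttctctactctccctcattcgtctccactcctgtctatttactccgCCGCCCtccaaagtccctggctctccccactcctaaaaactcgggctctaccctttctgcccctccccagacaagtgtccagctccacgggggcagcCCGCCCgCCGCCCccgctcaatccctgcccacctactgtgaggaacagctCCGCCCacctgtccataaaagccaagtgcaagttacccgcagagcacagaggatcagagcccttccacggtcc
The GC box occurred in the windows of 22 of the 35 member genes (62.9%), against 35.7% of all 32851 windows. Members were counted by gene, with a match in any of their 38 windows, and the rest by window, so the measures differ. CCAAT occurred in 37.1% of member genes and 37.4% of all windows, TATAAA in 14.3% and 13.6%, GGAATG in 14.3% and 14.7%, TGANTCA in 2.86% and 7.81%, and GTCTAGAC in 0% and 0.213%. All were searched on both strands, and matches may overlap in part although no motif contains another. These are matches of letters and not measured binding.

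Neither main chain of type IV collagen passed the test in G-line HOM. Col4a1, the main chain of type IV collagen in vessels and muscle, had 858, 643 and 398 CPM in G-line HOM, against 409, 406 and 396 CPM in WT. For Col4a1, G-line HET libraries had 679.7, 475 and 468 CPM, the A-line HOM library 405 CPM and A-line HET libraries 560.3, 492 and 355 CPM. G-line HOM replicate 3 fell within the WT range, and the log2 fold change of 0.65 ± 0.26 did not pass (adjusted p 0.092). Col4a2, which joins Col4a1 in the same molecule, had 470.4, 355 and 201 CPM in G-line HOM, against 218, 224 and 221 CPM in WT. For Col4a2, G-line HET libraries had 387, 247 and 252 CPM, the A-line HOM library 229 CPM and A-line HET libraries 271, 263 and 189 CPM. The groups again overlapped, with a log2 fold change of 0.63 ± 0.28 (adjusted p 0.136). Both chains varied together across libraries: the ratio of Col4a1 to Col4a2 counts stayed between 1.75 and 2.07 in all 13. Between G-line HOM and WT its log2 differed by 0.03 (exact permutation test, two-sided, p = 0.6, n = 3 each, lowest possible p 0.1).

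Col4a1 and Col4a2 are read in opposite directions from starts that lie 21 bases apart on chromosome 8, in the RefSeq annotation of GRCm38.p6. Their windows are shown because they share 78 bases, in capitals, at chr8:11312777-11313076 on the minus strand for Col4a1 and chr8:11312555-11312854 on the plus strand for Col4a2.
Col4a1: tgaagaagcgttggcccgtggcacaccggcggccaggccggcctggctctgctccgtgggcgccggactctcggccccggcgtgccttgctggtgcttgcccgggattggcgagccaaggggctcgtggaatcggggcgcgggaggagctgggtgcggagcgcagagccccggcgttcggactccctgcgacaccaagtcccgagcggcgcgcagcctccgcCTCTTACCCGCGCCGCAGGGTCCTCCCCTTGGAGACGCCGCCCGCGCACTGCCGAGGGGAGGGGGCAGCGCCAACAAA
Col4a2: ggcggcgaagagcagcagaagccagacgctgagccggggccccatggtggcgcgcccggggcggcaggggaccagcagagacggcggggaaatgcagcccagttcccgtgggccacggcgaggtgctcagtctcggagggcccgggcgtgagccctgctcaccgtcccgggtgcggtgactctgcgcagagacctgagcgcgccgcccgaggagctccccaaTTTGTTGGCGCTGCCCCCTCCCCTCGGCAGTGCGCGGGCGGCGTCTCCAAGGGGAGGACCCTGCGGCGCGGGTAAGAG
The capitals in 1 window are the reverse complement of those in the other. Whether counting used strand is not stated in the sources, so reads across the 22 overlapping exon bases cannot be assigned, a small part of 7464 and 6619 exon bases.

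The chains Col4a3, Col4a4 and Col4a5 rose in G-line HOM. Col4a3, one of the chains of the kidney and lung basement membrane network, had 65.6, 73.7 and 44.4 CPM in G-line HOM, against 11.2, 19.6 and 11.2 CPM in WT. For Col4a3, G-line HET libraries had 63.5, 34.3 and 35.3 CPM, the A-line HOM library 27.1 CPM and A-line HET libraries 36.4, 33.9 and 24.7 CPM. Every mutant library lay above every WT library. The log2 fold change was 2.13 ± 0.33 in G-line HOM (adjusted p 0.00118) and 1.66 ± 0.33 in G-line HET (0.0148), a call lost there without WT replicates 1 and 3, each left out alone (a log2 fold change of 1.52, adjusted p 0.065 to 0.0684). An antisense transcript overlaps 563 of the 9967 exon bases of Col4a3. Because the use of strand in counting is not stated, its reads may be among those counted for Col4a3. Col4a4, which lies beside Col4a3 and assembles with it, had 69.3, 67.1 and 54.8 CPM in G-line HOM, against 19.6, 30.4 and 21.01 CPM in WT. For Col4a4, G-line HET libraries had 71.9, 43.2 and 44.04 CPM, the A-line HOM library 38.00 CPM and A-line HET libraries 42.6, 47.2 and 45.7 CPM. All mutant libraries were above all WT libraries, by a log2 fold change of 1.43 ± 0.21 in G-line HOM (adjusted p 0.000514), 1.16 ± 0.21 in G-line HET (0.0069) and 0.93 ± 0.21 in A-line HET (0.0203). The A-line HET call of Col4a4 was lost without A-line HET replicates 2 and 3 and WT replicates 1 and 3, each left out alone (log2 fold changes of 0.81 to 0.92, adjusted p 0.0697 to 0.0891). Col4a5, the X-linked partner of both, had 193, 197 and 166 CPM in G-line HOM, against 94.1, 123 and 93.3 CPM in WT. For Col4a5, G-line HET libraries had 140.4, 128 and 126 CPM, the A-line HOM library 155 CPM and A-line HET libraries 127, 119.7 and 167 CPM. Its log2 fold change in G-line HOM was 0.84 ± 0.13 (adjusted p 0.000402), and the G-line HOM libraries lay above every other library but A-line HET replicate 3, which had 167 CPM against 166 CPM in G-line HOM replicate 3.

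Within libraries, the ratio of Col4a3 to Col4a1 counts was 0.0765, 0.115 and 0.112 in G-line HOM, against 0.0273, 0.0481 and 0.0283 in WT. In G-line HET it was 0.0934, 0.0721 and 0.0754, in the A-line HOM library 0.0668 and in A-line HET 0.0650, 0.0689 and 0.0696, so that every mutant library exceeded every WT library. The log2 ratio differed by 1.57 between G-line HOM and WT, by 1.26 between G-line HET and WT and by 1.02 between A-line HET and WT (exact permutation tests, p = 0.1 each, the lowest that 3 against 3 allows). In all, 8 ratios were tested in 3 comparisons, and 5 of them, Col4a3 to Col4a1, Col4a3 to Col4a4, Col8a1 to Col3a1, Col12a1 to Col3a1 and Col6a6 to Col6a3, were chosen after the data were seen, so their tests describe a pattern already noticed. Adjusted over the 24 tests, no p was below 0.15. The ratio of Col4a3 to its partner Col4a4 was 0.946, 1.10 and 0.811 in G-line HOM, against 0.570, 0.644 and 0.534 in WT. Those values did not overlap, and their log2 differed by 0.70 (exact p = 0.1).

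**Figure D3:**
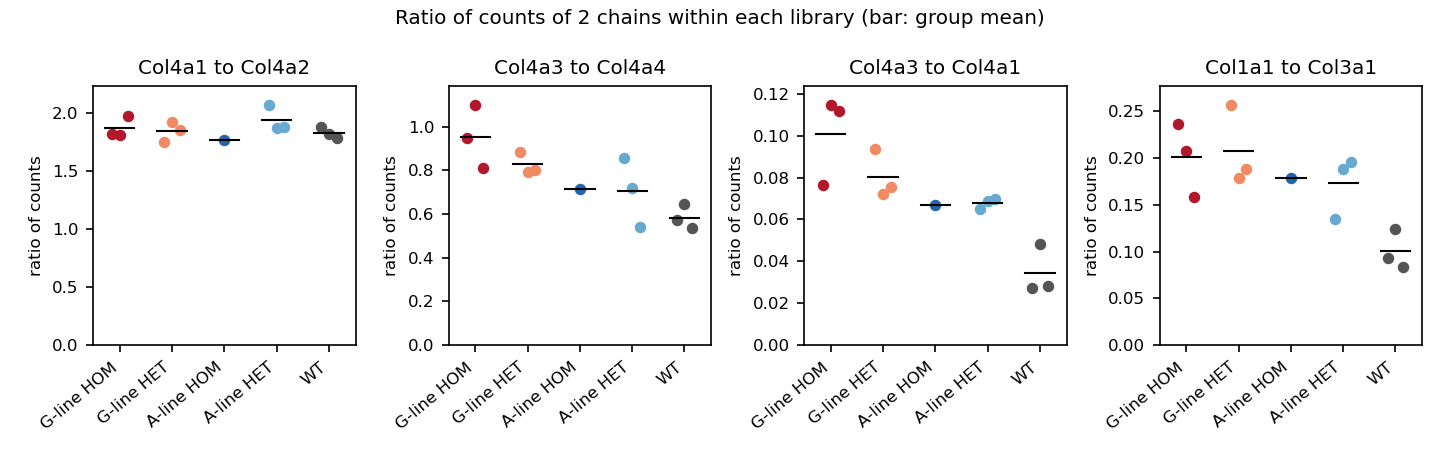
Ratio of the counts of 2 chains within each library (y axis, from 0) in the 5 groups, with a bar at the group mean. Col4a1 to Col4a2 lies between 1.75 and 2.07 in all libraries, while Col4a3 to Col4a1 and Col1a1 to Col3a1 are lowest in the WT libraries.

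Col4a6 and Col10a1 completed the network class and passed in no comparison with WT. Col10a1, a chain of cartilage growth plates, had between 1.70 and 4.02 CPM in all libraries. Col4a6 had 12.7, 19.2 and 14.7 CPM in the 3 libraries with atrial transcripts (G-line HOM 1, A-line HET 3, WT 2) and 1.25 to 4.63 CPM in the remaining 10. Those libraries also held 3.32, 5.32 and 1.40 CPM of the mesothelial marker Upk3b, against at most 0.216 CPM elsewhere. They further had 3.16, 3.08 and 11.01 CPM of Adipoq, a fat cell hormone, against at most 0.292 CPM elsewhere. Col18a1, the source of endostatin in vascular basement membranes, had 29.2, 21.5 and 21.1 CPM in those libraries and 6.30 to 17.1 CPM in the rest. Without them the log2 fold change of Col4a6 in the A-line HOM library against WT was 1.73 (adjusted p 0.0152), whereas with them it was -0.35 ± 1.73 (adjusted p 0.946). That p sets 4.63 CPM in 1 A-line HOM library against 1.55 and 1.25 CPM in the WT libraries left, with the spread taken from the other groups. The part of tissue other than ventricular muscle in these values was not tested.

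**Figure D4:**
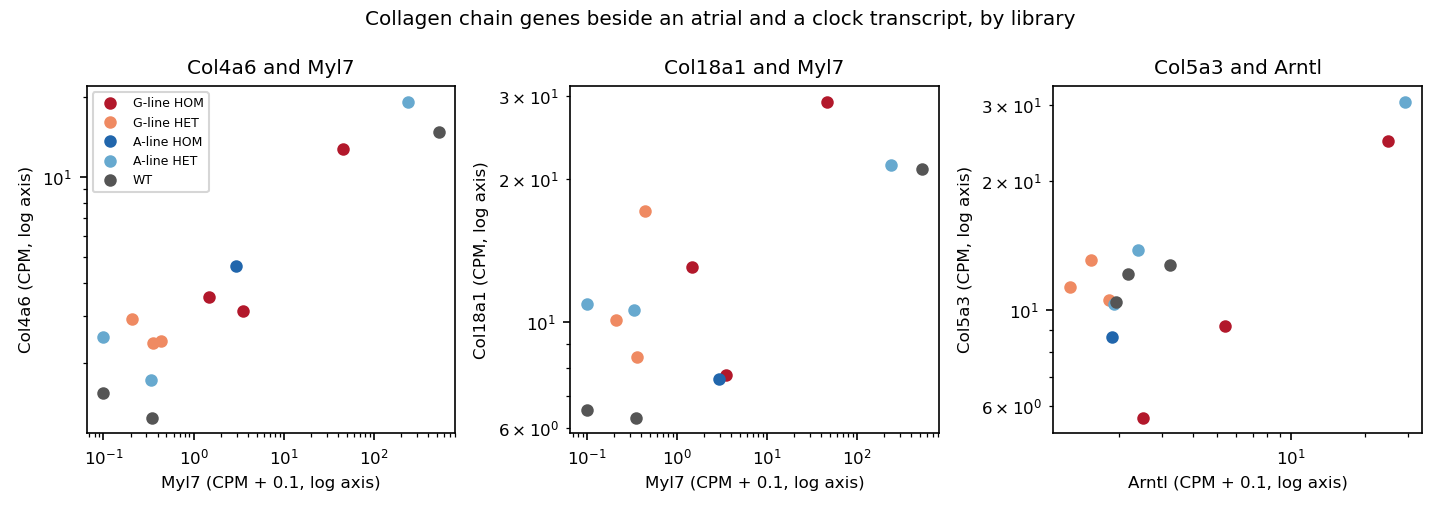
Level of Col4a6 and Col18a1 against Myl7 and of Col5a3 against Arntl in the 13 libraries, coloured by group, in CPM on log axes with 0.1 CPM added on the x axis. The libraries with 45.8 to 524 CPM of Myl7 have the highest Col4a6 and Col18a1, and those with 24.6 and 29.04 CPM of Arntl have the highest Col5a3.

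Of the fibrillar collagens, both type I chains, Col5a1, Col5a2, Col11a1 and Col27a1 rose in G-line HOM, while type III did not pass. Col1a1, the main chain of scar and tendon fibres, had 194, 102 and 71.1 CPM in G-line HOM, against 24.3, 58.4 and 26.4 CPM in WT. For Col1a1, G-line HET libraries had 143, 58.9 and 112 CPM, the A-line HOM library 56.9 CPM and A-line HET libraries 54.2, 100.4 and 87.9 CPM. G-line HOM libraries lay above all WT libraries, with a log2 fold change of 1.75 ± 0.53 (adjusted p 0.0389). This call was lost without G-line HOM replicates 1 and 2, G-line HET replicate 3, A-line HET replicates 2 and 3 and WT replicates 1 and 3, each left out alone (log2 fold changes of 1.25 to 1.87, adjusted p 0.0507 to 0.129). Col1a2, the second chain of type I collagen, had 499, 293 and 243 CPM in G-line HOM, against 88.8, 181 and 102 CPM in WT. For Col1a2, G-line HET libraries had 311, 179 and 309.7 CPM, the A-line HOM library 188 CPM and A-line HET libraries 163, 227 and 287 CPM. Against WT, Col1a2 had a log2 fold change of 1.48 ± 0.39 (adjusted p 0.0201), a call lost without G-line HOM replicate 1 and WT replicates 1 and 3, each left out alone (log2 fold changes of 1.11 to 1.36, adjusted p 0.0676 to 0.0718). Col3a1, the pliable fibre collagen found with type I in heart and vessels, had 823, 493 and 449.5 CPM in G-line HOM, against 261, 469 and 317 CPM in WT. For Col3a1, G-line HET libraries had 558, 329 and 594 CPM, the A-line HOM library 318 CPM and A-line HET libraries 403, 532 and 449 CPM. WT replicate 2 exceeded the lowest G-line HOM library, and the log2 fold change of 0.75 ± 0.30 had an adjusted p of 0.0986.

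The ratio of type I to type III transcripts was higher in every mutant library than in any WT library. The ratio of Col1a1 to Col3a1 counts was 0.236, 0.207 and 0.158 in G-line HOM, against 0.0930, 0.125 and 0.0831 in WT. It was 0.256, 0.179 and 0.188 in G-line HET, 0.179 in the A-line HOM library and 0.134, 0.189 and 0.195 in A-line HET. No mutant library overlapped WT. In log2 units the ratio was higher by 1.002 in G-line HOM, 1.06 in G-line HET and 0.79 in A-line HET (exact p = 0.1 each). Col1a1 to Col1a2, the chains of 1 molecule, overlapped between G-line HOM and WT and differed by 0.26 (exact p = 0.2). The same log2 ratio was higher by 0.42 in G-line HET, with every library above WT (exact p = 0.1), and by 0.32 in A-line HET, where the groups overlapped (exact p = 0.2).

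Type V collagen sits in the core of type I fibres and sets their width. Col5a2 had 251, 197 and 118 CPM in G-line HOM, against 48.2, 86.4 and 53.9 CPM in WT. For Col5a2, G-line HET libraries had 141, 81.2 and 125 CPM, the A-line HOM library 73.99 CPM and A-line HET libraries 87.2, 97.2 and 94.6 CPM. In G-line HOM its log2 fold change was 1.59 ± 0.32 (adjusted p 0.00485), and the G-line HOM libraries lay above WT in full but overlapped G-line HET. Col5a1 had 95.5, 70.2 and 52.97 CPM in G-line HOM, against 38.6, 46.7 and 39.5 CPM in WT. For Col5a1, G-line HET libraries had 89.4, 56.6 and 85.7 CPM, the A-line HOM library 47.02 CPM and A-line HET libraries 58.1, 66.8 and 59.5 CPM. Col5a1 had a log2 fold change of 0.81 ± 0.21 in G-line HOM (adjusted p 0.014) and 0.89 ± 0.21 in G-line HET (0.0264), and every library of both groups lay above WT. Those calls were lost without WT replicates 1 and 3, each left out alone (log2 fold changes of 0.76 to 0.77, adjusted p 0.0531 to 0.0542) in G-line HOM, and without G-line HET replicates 1 and 3 and WT replicates 1 and 3, each left out alone (log2 fold changes of 0.78 to 0.86, adjusted p 0.0843 to 0.114) in G-line HET. Antisense transcripts overlap 212 of the 8490 exon bases of Col5a1. Col5a3, a further type V chain, had 24.7, 9.19 and 5.64 CPM in G-line HOM, against 12.8, 10.4 and 12.1 CPM in WT, and did not pass. Its highest values, 24.7 and 30.5 CPM, fell in the 2 libraries with high Arntl, of G-line HOM and A-line HET. Without those libraries the log2 fold change in G-line HOM was -0.67 (adjusted p 0.0358), against 0.18 ± 0.54 with them.

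Col27a1, a fibrillar chain best known from developing cartilage, had 8.26, 6.13 and 4.60 CPM in G-line HOM, against 2.71, 2.88 and 1.96 CPM in WT. For Col27a1, G-line HET libraries had 5.48, 3.97 and 7.73 CPM, the A-line HOM library 3.200 CPM and A-line HET libraries 3.78, 4.08 and 5.05 CPM. Relative to WT, its log2 fold change was 1.34 ± 0.27 in G-line HOM (adjusted p 0.00235) and 1.19 ± 0.27 in G-line HET (0.0165), and every mutant library was above WT. The G-line HET call was lost without G-line HET replicates 1 and 3 and WT replicates 1 and 3, each left out alone (log2 fold changes of 0.91 to 1.24, adjusted p 0.0529 to 0.0869). Col11a1, a fibre-nucleating chain of cartilage that activated fibroblasts also make, had 6.22, 3.63 and 1.83 CPM in G-line HOM, against 0.0859, 0.870 and 0.292 CPM in WT. For Col11a1, G-line HET libraries had 0.340, 0.130 and 0.989 CPM, the A-line HOM library 0.971 CPM and A-line HET libraries 0, 0.583 and 2.18 CPM. Counts behind these levels were low, at 199, 77 and 39 in G-line HOM and 2, 23 and 7 in WT. The log2 fold change of 3.19 ± 1.01 passed (adjusted p 0.0414) but the call was lost without G-line HOM replicates 1 and 2, G-line HET replicate 1, A-line HET replicate 2 and WT replicates 1 and 3, each left out alone (log2 fold changes of 2.66 to 3.24, adjusted p 0.0511 to 0.129), and without WT replicate 2 the log2 fold change was 4.33. Col11a2 lay between 0.471 and 2.71 CPM in all libraries and passed in no comparison. Col2a1 and Col24a1 had 12 and 68 counts in all 13 libraries together and stayed below the filter.

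**Figure D5:**
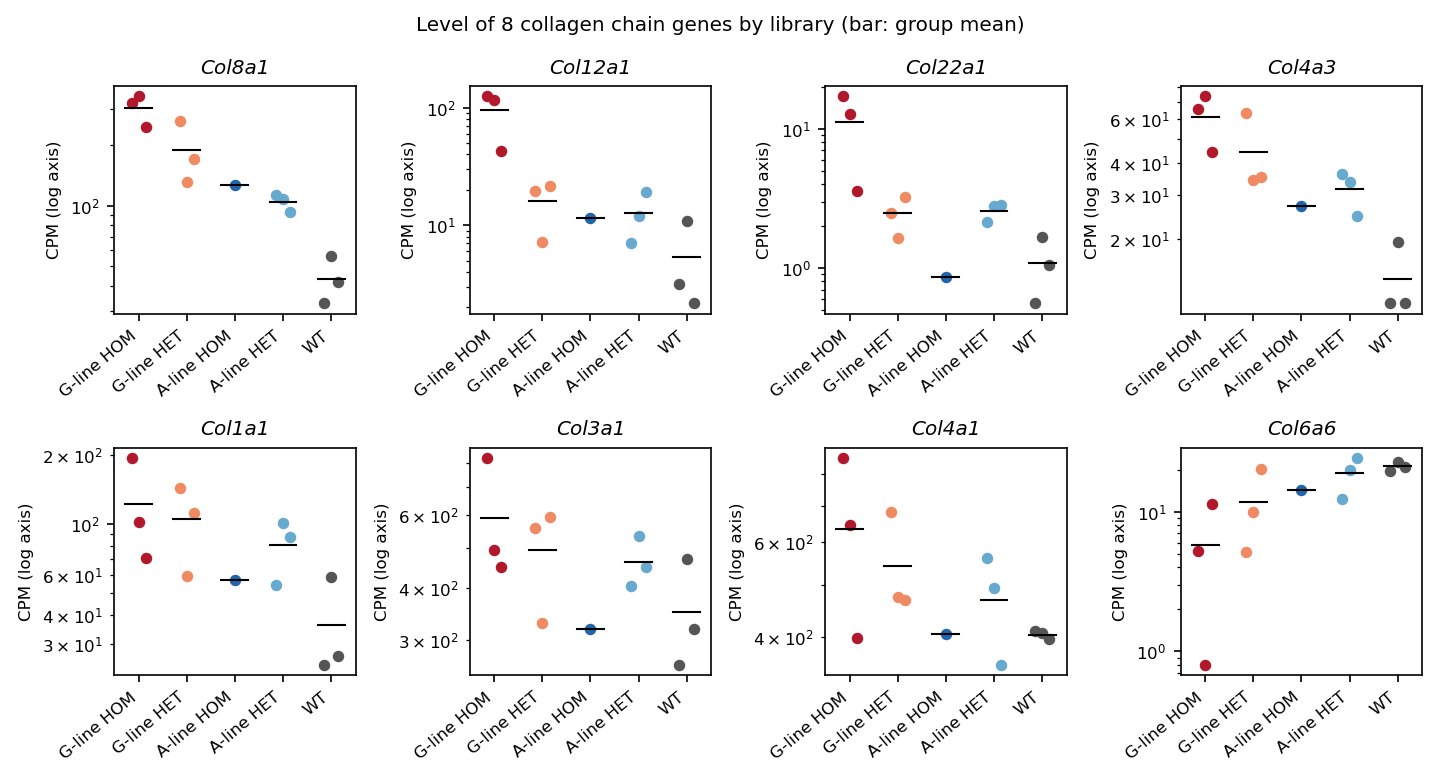
Level in CPM on log axes of 8 members in each library of the 5 groups, with a bar at the group mean. For Col8a1, Col4a3, Col12a1, Col22a1 and Col1a1 the G-line HOM libraries lie above all WT libraries, Col3a1 and Col4a1 overlap between those groups, and Col6a6 lies below WT.

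The FACIT class held the highest log2 fold change of the 39 members, that of Col12a1. Col12a1, which bridges fibres in tissue under tension, had 125, 117 and 43.1 CPM in G-line HOM, against 3.18, 10.8 and 2.17 CPM in WT. For Col12a1, G-line HET libraries had 19.7, 7.17 and 21.4 CPM, the A-line HOM library 11.5 CPM and A-line HET libraries 7.01, 11.9 and 19.1 CPM. The lowest G-line HOM library had 43.1 CPM, above the 21.4 CPM of the highest library of any other group. Its log2 fold change against WT was 4.13 ± 0.77 (adjusted p 0.00472), and without WT replicate 2, whose 10.8 CPM was the highest in WT, it was 5.15. Col22a1, a chain of tissue junctions such as those between muscle and tendon, had 17.1, 12.7 and 3.57 CPM in G-line HOM, against 0.558, 1.67 and 1.04 CPM in WT. For Col22a1, G-line HET libraries had 2.50, 1.64 and 3.26 CPM, the A-line HOM library 0.857 CPM and A-line HET libraries 2.13, 2.80 and 2.82 CPM. Col22a1 had a log2 fold change of 3.34 ± 0.55 (adjusted p 0.00117), and G-line HOM replicate 3, with 3.57 CPM, stood closest to the 3.26 CPM of G-line HET replicate 3. Col14a1, a regulator of fibre growth, had 131, 102 and 62.9 CPM in G-line HOM, against 16.6, 50.8 and 17.8 CPM in WT. For Col14a1, G-line HET libraries had 43.4, 28.5 and 49.3 CPM, the A-line HOM library 37.4 CPM and A-line HET libraries 40.4, 46.9 and 71.7 CPM. Its log2 fold change of 1.80 ± 0.49 passed (adjusted p 0.0262), but the call was lost without G-line HOM replicates 1 and 2 and WT replicates 1 and 3, each left out alone (log2 fold changes of 1.52 to 1.77, adjusted p 0.0636 to 0.0861). Without WT replicate 2 the log2 fold change of Col14a1 was 2.52 (adjusted p 0.00201).

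Col16a1, a minor chain made by fibroblasts and smooth muscle cells, had 29.4, 18.8 and 12.02 CPM in G-line HOM, against 4.42, 8.21 and 6.55 CPM in WT. For Col16a1, G-line HET libraries had 23.3, 10.6 and 18.8 CPM, the A-line HOM library 10.6 CPM and A-line HET libraries 10.01, 10.2 and 13.7 CPM. Every mutant library lay above every WT library. Col16a1 had a log2 fold change of 1.65 ± 0.38 in G-line HOM (adjusted p 0.00888) and 1.46 ± 0.38 in G-line HET (0.0444), where the call was lost without G-line HOM replicate 2, G-line HET replicates 1 and 3, A-line HET replicates 1, 2 and 3 and WT replicates 1, 2 and 3, each left out alone (log2 fold changes of 1.20 to 1.68, adjusted p 0.0518 to 0.162). Col9a2, a cartilage chain that coats type II fibres, had 3.13, 1.74 and 1.69 CPM in G-line HOM, against 0.129, 0.303 and 0.292 CPM in WT. For Col9a2, G-line HET libraries had 2.46, 0.475 and 1.25 CPM, the A-line HOM library 0.686 CPM and A-line HET libraries 0.552, 1.05 and 0.319 CPM. Its counts were 100, 37 and 36 in G-line HOM and 3, 8 and 7 in WT, and all G-line libraries lay above all WT libraries. The log2 fold change was 3.15 ± 0.60 in G-line HOM (adjusted p 0.00161) and 2.50 ± 0.61 in G-line HET (0.0241). In G-line HET the call was lost without G-line HET replicates 1 and 3 and WT replicates 1, 2 and 3, each left out alone (log2 fold changes of 1.82 to 2.698, adjusted p 0.0503 to 0.14). The other chains of type IX did not follow, with 0.0733 to 0.641 CPM of Col9a3 and 21 counts of Col9a1 in all libraries together. Col20a1 stayed between 5.46 and 8.27 CPM, with a log2 fold change of 0.05 ± 0.16 in G-line HOM (adjusted p 0.857). Col19a1, with 85 counts in all, remained below the filter. Markers of cartilage moved in part beside Col9a2 and Col11a1: of 7 listed, 5 were tested and Sox9 alone passed, with a log2 fold change of 2.25 ± 0.32 (adjusted p 0.000176). Their summed level was 21.1 to 106 CPM in G-line HOM and 3.01 to 18.8 CPM in WT, and Acan lay between 0 and 1.28 CPM in every library. Most of that sum was Comp, which is also in the activated fibroblast list and did not pass, with 96.1, 96.03 and 14.7 CPM in G-line HOM, against 0.859, 13.4 and 1.88 CPM in WT (adjusted p 0.0629). The part of such cells was not tested.

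The remaining class holds type VI microfibrils, basement membrane hybrids and membrane-bound chains, and 5 of its 14 members past the filter rose in G-line HOM. Col6a1, a chain of the beaded microfibrils around muscle cells, had 193, 119.7 and 136 CPM in G-line HOM, against 77.3, 109 and 88.1 CPM in WT. For Col6a1, G-line HET libraries had 158, 103 and 165 CPM, the A-line HOM library 101 CPM and A-line HET libraries 116, 138 and 125 CPM. G-line HOM lay above WT in every library, by a log2 fold change of 0.71 ± 0.21 (adjusted p 0.0273), a call lost without G-line HOM replicate 1 and WT replicates 1 and 3, each left out alone (log2 fold changes of 0.48 to 0.68, adjusted p 0.0848 to 0.106). Col6a2, its partner, had 106, 71.1 and 78.2 CPM in G-line HOM, against 40.97, 59.6 and 44.5 CPM in WT. For Col6a2, G-line HET libraries had 105, 64.02 and 91.9 CPM, the A-line HOM library 61.8 CPM and A-line HET libraries 66.7, 87.5 and 75.1 CPM. Col6a2 had a log2 fold change of 0.82 ± 0.21 in G-line HOM (adjusted p 0.0139) and 0.84 ± 0.21 in G-line HET (0.0341), with every library of both groups above WT. The Col6a2 calls were lost without G-line HOM replicate 1 and WT replicates 1 and 3, each left out alone (log2 fold changes of 0.63 to 0.76, adjusted p 0.0556 to 0.0595) in G-line HOM, and without G-line HET replicates 1 and 3 and WT replicates 1 and 3, each left out alone (log2 fold changes of 0.69 to 0.80, adjusted p 0.0972 to 0.14) in G-line HET. Col6a3, the large chain of the common type VI molecule, had 148, 72.7 and 144 CPM in G-line HOM, against 82.5, 83.6 and 81.3 CPM in WT. For Col6a3, G-line HET libraries had 126, 91.8 and 157 CPM, the A-line HOM library 93.1 CPM and A-line HET libraries 118, 170.1 and 139 CPM. G-line HOM replicate 2 was below WT, and the log2 fold change of 0.56 ± 0.27 did not pass (adjusted p 0.161).

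Col6a6, an alternative to Col6a3 in type VI collagen, had 5.19, 0.801 and 11.3 CPM in G-line HOM, against 19.6, 22.8 and 20.9 CPM in WT. For Col6a6, G-line HET libraries had 5.14, 9.89 and 20.4 CPM, the A-line HOM library 14.4 CPM and A-line HET libraries 12.3, 19.9 and 24.3 CPM. All G-line HOM libraries lay below all WT libraries, a separation that 21.1% of all genes showed, and the log2 fold change of -1.87 ± 0.74 did not pass (adjusted p 0.1). Relative to Col6a3 in the same library the ratio was 0.0350, 0.0110 and 0.0789 in G-line HOM, against 0.237, 0.273 and 0.257 in WT. It was 0.0408, 0.108 and 0.130 in G-line HET, 0.155 in the A-line HOM library and 0.104, 0.117 and 0.175 in A-line HET. This pair was chosen after the opposite values of its chains were seen. No mutant library reached the WT range, and the log2 ratio differed from WT by -3.03 in G-line HOM, -1.62 in G-line HET and -0.99 in A-line HET (exact p = 0.1 each). In all, 7 members had negative log2 fold changes in G-line HOM. Besides Col6a6, those with an unadjusted p under 0.05 were Col13a1, Col17a1 and Col25a1, with log2 fold changes of -1.17 ± 0.49, -0.75 ± 0.34 and -1.22 ± 0.52 and adjusted p of 0.0969, 0.128 and 0.1. These 3 were scarce, at no more than 3.39 CPM in any library. Col6a5, Col11a2 and Col28a1 had -0.76 ± 1.40, -0.39 ± 0.47 and -0.11 ± 0.34, with adjusted p of 0.738, 0.584 and 0.843. Lower calls appeared for Col6a6 without G-line HOM replicate 3 (log2 fold change -2.73, adjusted p 0.0369), for Col25a1 without WT replicate 1 (-1.61, 0.0326) and for Col13a1 without the 2 libraries with high Arntl (-1.46, 0.049).

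Col15a1, a collagen that stabilises the basement membrane of muscle and capillaries, had 139, 119 and 111 CPM in G-line HOM, against 61.6, 74.8 and 56.04 CPM in WT. For Col15a1, G-line HET libraries had 134, 80.4 and 121 CPM, the A-line HOM library 76.1 CPM and A-line HET libraries 97.4, 145 and 91.3 CPM. Every mutant library was above every WT library. Col15a1 had a log2 fold change of 0.94 ± 0.21 in G-line HOM (adjusted p 0.00742), 0.80 ± 0.21 in G-line HET (0.045) and 0.80 ± 0.21 in A-line HET (0.0448). The G-line HET call was lost without G-line HOM replicates 1, 2 and 3, G-line HET replicates 1 and 3, A-line HET replicate 1 and WT replicates 1 and 3, each left out alone (log2 fold changes of 0.65 to 0.80, adjusted p 0.0532 to 0.176). In A-line HET it was lost without G-line HOM replicates 1, 2 and 3, G-line HET replicate 3, A-line HET replicates 2 and 3 and WT replicates 1 and 3, each left out alone (log2 fold changes of 0.56 to 0.92, adjusted p 0.05 to 0.157). Col7a1, the anchoring fibril chain of skin, had 1.63, 1.18 and 0.798 CPM in G-line HOM, against 0.344, 0.454 and 0.542 CPM in WT. For Col7a1, G-line HET libraries had 0.454, 0.302 and 0.476 CPM, the A-line HOM library 1.60 CPM and A-line HET libraries 0.552, 1.34 and 1.60 CPM. Counts were 52, 25 and 17 in G-line HOM and 8, 12 and 13 in WT. The log2 fold change of 1.43 ± 0.43 (adjusted p 0.0229) lost its call without G-line HOM replicates 1 and 2 and WT replicates 1 and 2, each left out alone (log2 fold changes of 1.13 to 1.45, adjusted p 0.0503 to 0.107). Col26a1, an ovary and testis collagen in the mouse, had 0.907, 0.660 and 0.517 CPM in G-line HOM, against 0.172, 0.151 and 0.125 CPM in WT. For Col26a1, G-line HET libraries had 1.10, 0.216 and 0.183 CPM, the A-line HOM library 0.514 CPM and A-line HET libraries 0.394, 0.466 and 0.319 CPM. Its counts were 29, 14 and 11 in G-line HOM and 4, 4 and 3 in WT, with a log2 fold change of 2.19 ± 0.66 (adjusted p 0.0243), a call lost without G-line HOM replicate 1 and WT replicates 1, 2 and 3, each left out alone (log2 fold changes of 1.94 to 2.30, adjusted p 0.06 to 0.0872). Col18a1, Col23a1, Col28a1 and Col6a5 did not pass in any comparison with WT, and Col6a4 had 1 count in all libraries.

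Fewer members passed in heterozygous and A-line ventricles than in G-line HOM. In G-line HET against WT 9 of 39 members were higher and 0 lower, against 3.97% of all genes higher and 3.54% lower. These were Col8a1, Col4a3, Col4a4, Col5a1, Col27a1, Col9a2, Col16a1, Col6a2 and Col15a1. The median log2 fold change was 0.50 over the 39 members and -0.01 over all genes. At an unadjusted p under 0.05 there were 16 members (41.03%), 0 of them lower, against 22.3% of all genes. DESeq2 called 13 members higher and 0 lower, against 5.91% of all genes higher. Without the 3 libraries with atrial transcripts 14 members passed, against 4.69% of all genes higher. Without WT replicate 1 or WT replicate 3 only Col8a1 and Col4a4 passed, against 1.79% and 1.87% of all genes higher. Leaving out G-line HET replicate 1 or 3 gave 3 members, against 1.69% and 2.49% of all genes higher. In A-line HET against WT 3 of 39 were higher (Col8a1, Col4a4 and Col15a1) and 0 lower, against 3.99% of all genes higher and 3.97% lower. The median log2 fold change there was 0.63 over the members and 0.02 over all genes, and 13 members (33.3%) had an unadjusted p under 0.05, 1 of them lower, against 21.95% of all genes. DESeq2 called 7 members higher and 0 lower there, against 5.13% of all genes higher. Leaving out A-line HET replicate 2, WT replicate 1 or WT replicate 3 gave 0 members there. Of all genes, 2.03%, 2.00% and 1.79% were higher in those fits. Leaving out A-line HET replicate 3 gave 1, against 2.11%, and leaving out WT replicate 2 gave 7, against 3.50%. In the single A-line HOM library against WT 1 member, Col8a1, was higher and 0 lower, against 2.82% of all genes higher and 1.86% lower. That group has 1 library, so its standard errors and p-values rest on the spread within the other groups and assume that it varies as they do. An unadjusted p under 0.05 was seen for 5 members (12.8%), 1 of them lower, below the 18.8% of all genes. DESeq2 called 2 members higher and 0 lower, against 3.98% of all genes higher. These comparisons share the WT libraries, so their values are not independent of each other.

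Direct tests between mutant groups separated few members. In G-line HOM against G-line HET 4 of 39 were higher and 0 lower, against 6.22% of all genes higher and 8.42% lower. They were Col22a1 (log2 fold change 2.17 ± 0.51, adjusted p 0.018), Col4a5 (0.50 ± 0.13, 0.0244), Col7a1 (1.54 ± 0.43, 0.0285) and Col12a1 (2.56 ± 0.70, 0.044). In each of the 4, every G-line HOM library lay above every G-line HET library, as in 17.9% of all genes. The Col22a1 call was lost without G-line HOM replicates 1 and 2 and G-line HET replicates 1 and 2, each left out alone (log2 fold changes of 1.71 to 2.18, adjusted p 0.0526 to 0.0672). The Col4a5 call was lost without G-line HOM replicates 1 and 2 and G-line HET replicates 2 and 3, each left out alone (log2 fold changes of 0.45 to 0.48, adjusted p 0.067 to 0.09). For Col7a1 it was lost without G-line HOM replicates 1 and 2 and G-line HET replicates 1, 2 and 3, each left out alone (log2 fold changes of 1.25 to 1.66, adjusted p 0.0626 to 0.113). For Col12a1 it was lost without G-line HOM replicates 1 and 2, G-line HET replicates 1, 2 and 3, A-line HET replicates 2 and 3 and WT replicate 1, each left out alone (log2 fold changes of 2.21 to 2.82, adjusted p 0.0507 to 0.118). The 9 members with an unadjusted p under 0.05 (23.1%), 0 of them lower, were a smaller share than the 29.99% of all genes. DESeq2 called 6 members higher and 0 lower, against 7.37% of all genes higher. Col8a1, at 0.70 ± 0.26, did not pass (adjusted p 0.0982). In A-line HET against G-line HET 0 of 39 passed in either direction, against 0.0284% of all genes. An unadjusted p under 0.05 was reached by 3 members (7.69%), 1 of them lower, below the 13.3% of all genes. DESeq2 called Col8a1 lower in A-line HET, against 0.824% of all genes lower. In the edgeR fit Col8a1 differed by -0.85 ± 0.26 (adjusted p 0.224), with all A-line HET libraries below all G-line HET libraries. In G-line HOM against the A-line HOM library, a comparison added after the data were seen, 0 of 39 passed, against 0.0398% of all genes. There 8 members (20.5%) had an unadjusted p under 0.05, 0 of them lower, against 11.8% of all genes. DESeq2 called Col22a1, Col5a2 and Col8a1 higher in G-line HOM, against 0.398% of all genes higher. With the shared pair counted in both A-line HOM and WT, 12 members were higher in G-line HOM, against 5.40% of all genes. Replicates 2 and 3 of A-line HOM are then the WT libraries, so this count is not separate from G-line HOM against WT. A single A-line HOM library limits the main test, and a missed threshold does not show that the lines act alike.

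Enzymes that modify and fold collagen chains rose in part. Of 21 listed genes of collagen biosynthesis, 20 were tested, and 8 were higher and 2 lower in G-line HOM than in WT. Over all genes the shares were 13.1% higher and 13.3% lower. P3h2, a prolyl 3-hydroxylase that acts on type IV collagen, had 18.5, 17.01 and 7.47 CPM in G-line HOM, against 3.44, 5.03 and 3.84 CPM in WT, a log2 fold change of 1.80 ± 0.29 (adjusted p 0.000498). Its 3 G-line HOM libraries lay above all WT libraries. Fkbp14, an isomerase that helps the chains fold, rose by 0.68 ± 0.11 on the log2 scale (adjusted p 0.000525), P4ha1, a catalytic subunit of prolyl 4-hydroxylase, by 0.66 ± 0.11 (0.000608), and Plod2, which modifies lysines for cross-links, by 0.64 ± 0.11 (0.000845). P4hb, the other subunit of prolyl 4-hydroxylase, rose by 0.49 ± 0.10 (0.00278). The 2 lower genes were Mia2 (-0.61 ± 0.12, 0.00201) and P3h4 (-0.34 ± 0.12, 0.0418). The collagen chaperone Serpinh1 had a log2 fold change of 0.16 ± 0.16 (adjusted p 0.497).

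Of 10 genes that cut procollagen or assist in it, 8 were tested. In G-line HOM 4 were higher and 1 lower, against 13.1% and 13.3% of all genes. Pcolce, which enhances removal of the carboxyl propeptide, had 120.4, 111 and 88.2 CPM in G-line HOM, against 22.1, 35.7 and 28.2 CPM in WT. For Pcolce, G-line HET libraries had 101, 65.1 and 87.7 CPM, the A-line HOM library 89.9 CPM and A-line HET libraries 76.7, 88.4 and 84.9 CPM. No mutant library overlapped WT, and the log2 fold change in G-line HOM was 1.90 ± 0.19 (adjusted p 4.37e-05). Adamts2, which removes the amino propeptide, was higher by 1.28 ± 0.29 on the log2 scale (0.00886), and its relative Adamts14 was lower, at -1.39 ± 0.33 (0.00614) and lay at or below 1.51 CPM in every library. Among 10 collagen receptors, 9 were tested and 3 were higher, with 0 lower. They were Mrc2, which takes collagen up for breakdown (1.28 ± 0.19, 0.000391), the receptor kinase Ddr1 (1.43 ± 0.24, 0.00107) and the integrin chain Itga11 (1.83 ± 0.38, 0.00412). Itgb1, the shared chain of the collagen-binding integrins, was at -0.05 ± 0.09 (adjusted p 0.716).

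Markers of cell types were compared over the same libraries. For G-line HOM against WT, 13.1% of all genes were higher and 13.3% lower. Of 14 fibroblast markers 7 were higher and 1 lower in G-line HOM than in WT, with a summed level of 2066 to 2625 CPM in G-line HOM and 1109 to 2076 CPM in WT. Of 11 markers of activated fibroblasts 10 were tested and 7 were higher, with a summed level of 730 to 1609 CPM in G-line HOM and 129 to 310 CPM in WT. Postn, the matrix protein periostin that marks them, had 571, 576 and 317 CPM in G-line HOM, against 44.6, 102 and 42.4 CPM in WT. Acta2, the smooth muscle actin of myofibroblasts, had a log2 fold change of -0.45 ± 0.83 (adjusted p 0.74). Endothelial markers summed to 1123 to 1658 CPM in G-line HOM and 1268 to 1366 CPM in WT, with 0 of 12 higher and 1 lower. Pericyte and smooth muscle markers had 2 of 11 higher and 4 lower, with summed levels of 2426 to 3042 CPM in G-line HOM and 2659 to 2860.6 CPM in WT. Heart muscle markers had 0 of 10 higher and 6 lower, with 41190 to 45945 CPM in G-line HOM and 54831 to 60256 CPM in WT. Macrophage markers (0 of 11), mesothelial markers (0 of 6 tested), Schwann cell markers (0 of 6 tested) and fat cell markers (0 of 6 tested) did not pass in either direction, and of the atrial list 1 of 4 passed, Nppa. The part of these cell types in the collagen values was not tested.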

How the data were processed

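Per the labels' protocols, the submitters used TRIzol for total RNA, a DNase step and a TruSeq Gold kit. The tools were bcl2fastq (2.20.0.422), Trimmomatic (0.39) and STAR (2.7.4a), with build mm39 (GRCm39), per the submitters' processing notes. The files the authors deposited hold raw counts, 1 value per symbol and library, taken unchanged. No source used here names the counter, its annotation or its use of strand.

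Counts were fitted with edgeR 4.0.16 (TMM scaling, robust quasi-likelihood F test) in R 4.3.3 over all 13 distinct libraries, with 8 residual degrees of freedom. CPM values use TMM-scaled library sizes. Genes needed 0.422 CPM in 3 libraries and a total of 15 counts. P-values were adjusted by Benjamini-Hochberg over 17588 genes, with a threshold of 0.05. The standard error is the log2 fold change divided by the root of F. DESeq2 1.42.0 was an alternative. Others were RLE size factors, low-count filters, the compared groups alone, a replicate block, other uses of the shared libraries and leaving out each library. The procedure was tested on simulated data. Ratios of raw counts were tested by exact two-sided permutation. Full statistics were given for members called against WT or reaching a group mean of 20 CPM. The members, lists and tests were chosen with earlier results of these data known. Exon lengths came from GENCODE M21 (GRCm38), and promoter windows from RefSeq GRCm38.p6.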

Additional observations from a re-analysis of the deposited data

How the results depend on the processing

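The counts of members called against WT depended on the libraries kept as WT, and so did the counts over all genes. With the shared pair as A-line HOM or left out, WT kept 1 library. Fewer members and fewer of all genes then passed in each comparison with WT. In G-line HOM against WT, 21 members passed, 8 with the shared pair as A-line HOM, 11 with it left out and 13 without the libraries with high Arntl. Of those 13, 11 were higher and 2 lower. In that fit 10.6% of all genes were higher and 11.03% lower, against 13.1% and 13.3% in the main fit. In G-line HET against WT, 9 passed, against 3.97% of all genes higher. Without a low-count filter 5 passed, against 2.46% of all genes higher. A fit of the compared groups alone gave 5, against 7.13%. Without the libraries with atrial transcripts there were 14, against 4.69%. In A-line HET against WT, 3 passed, against 3.99% of all genes higher. DESeq2 gave 7, against 5.13%. The compared groups alone gave 6, against 3.13%, and 2 of these were among the 3. Without the atrial libraries 1 passed, against 1.89%. With no low-count filter 0 passed, against 2.00%, and without the high-Arntl libraries 0, against 2.21%. With the shared pair in both groups 0 passed, as did 0% of all genes. A-line HOM against WT rests on 1 library in the main fit. Over the alternative analyses its log2 fold change of Col8a1 ran between 0.78 and 1.94. In G-line HOM against G-line HET, 4 passed, against 6.22% of all genes higher. With no low-count filter 2 passed, against 2.72%, and with the shared pair in both groups 1, against 4.43%. Without the atrial libraries 2 passed, against 3.81%, and 1 of these was among the 4. Without the high-Arntl libraries 0 passed, against 3.69% of all genes higher. DESeq2 called 1 member lower in A-line HET against G-line HET, where 0 passed in edgeR, against 0.824% of all genes lower. In G-line HOM against A-line HOM 12 were higher with the shared pair in both A-line HOM and WT, against 5.40% of all genes. That setting compares G-line HOM in part with the WT libraries. The causes were not tested.

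Leaving out 1 library at a time gave, against WT, between 2 members (without WT replicate 1) and 10 for G-line HET. Of all genes, 1.79% and 3.46% were higher at those ends. For A-line HET it gave between 0 (as without WT replicate 1) and 7, with 2.00% and 3.50% of all genes higher. For G-line HOM it gave between 12 and 24 members, with 9.65% and 13.6% of all genes higher. Both ends of the G-line HOM range hold 1 lower call, with 11 higher at the low end and 23 higher at the high end. In G-line HOM against G-line HET, such omissions gave 0 members (as without G-line HOM replicate 1) to 5 (as without G-line HOM replicate 3). Of all genes, 3.42% and 6.94% were higher there. In A-line HET against G-line HET they gave at most 1, without A-line HET replicate 1, with 1.32% of all genes higher. With a replicate block, 17, 6 and 3 members passed in G-line HOM, G-line HET and A-line HET against WT. Of all genes, 11.6%, 3.01% and 2.95% were higher there. The same block gave 2 in G-line HOM against G-line HET, with 4.53% of all genes higher. No pairing by replicate number showed: correlations of same-numbered deviations ran between -0.262 and 0.136 over 18 pairs, with 2 over 0.1. Differently numbered libraries reached 0.426 (A-line HET replicate 3 with WT replicate 2, both with atrial transcripts), so a weak pairing could be missed. Col5a3 turned to -0.67 (adjusted p 0.0358) in G-line HOM without the high-Arntl libraries, and Col4a6 to 1.73 (adjusted p 0.0152) in the A-line HOM library without the atrial ones. Both sets of libraries were left out after the data were seen.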

Other observations

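Col9a1, below the filter on low counts, had 3, 5 and 13 counts in G-line HOM replicate 1, A-line HET replicate 3 and WT replicate 2, the libraries with atrial transcripts, and 0 counts in the other 10 libraries. Col4a5 and Col4a6 start 1343 bases apart on chromosome X and are read in opposite directions, in the RefSeq annotation of GRCm38.p6. Col4a5 rose in G-line HOM, while Col4a6 was highest in the libraries with atrial transcripts.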
